A study of Xenopus laevis with 11 samples.

Results

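Genes for chromatin regulators were followed across tissues of Xenopus laevis embryos around the time the neural crest is induced. The members are the genes whose platform symbol marks them as histone methyltransferases (kmt, setd, ezh), protein arginine methyltransferases (prmt), lysine demethylases (kdm), histone deacetylases (hdac), chromobox proteins (cbx), bromodomain proteins (brd), chromatin remodelling subunits (chd, smarc) or DNA methyltransferases (dnmt), with eed and suz12 added. They were chosen by name, with no filter on a measured value, but with earlier results of these data known. The rule found 47 symbols among the 7531 on the array with a name of their own. Xenopus laevis is an allotetraploid, so a gene can have a long-chromosome copy (.L) and a short-chromosome copy (.S). With copies joined, the members are 39 genes of 6504. A tet gene was searched for by name too, and no probe set matched. Each symbol is represented by its brightest probe set out of 60 that carry a member's symbol.

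The tissues were microdissected from embryos for which the labels give no genotype and no treatment, and all embryos were raised at the same low temperature. Each array holds the RNA of 1 sample. Neural plate was taken at stage 12 (2 arrays), neural border at stage 14 (3 arrays) and neural border at stage 18 (2 arrays), the sequence of tissues from which the crest arises. The anterior neural fold at stage 18 (3 arrays) is a part of the border that makes no crest, and the animal cap, ectoderm explanted and cultured to stage 14 (1 array), turns into epidermis. The labels call the arrays biological replicates without saying whether they came from separate clutches or how many embryos were pooled, so the spread behind every p-value is that between these arrays and may be technical. All values are log2 intensities as the authors deposited them. A difference between groups is a log2 fold change from limma with its standard error (SE), and a probe set was called at an adjusted p under 0.05 after Benjamini-Hochberg adjustment over all 15491 non-control probe sets. Levels of different probe sets are not compared with each other, because each probe set responds differently to its transcript.

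Markers of the labelled tissues were checked first. Of 10 neural crest symbols, 9 were higher in the stage 14 border than in the cap and 10 were higher in the stage 18 border than in the anterior fold, and 9 of them were below background in the cap. Of 11 epidermal symbols, 8 were lower in the stage 14 border than in the cap, and 9 were higher in the stage 14 border than in the plate. Of 11 neural plate symbols, 11 were higher in the stage 14 border than in the cap, and 3 were higher and 5 lower in the stage 14 border than in the plate. Of 11 anterior fold and placode symbols, 8 were lower in the stage 18 border than in the fold. Of 9 mesoderm symbols, 9 lay below background in the stage 14 border and in the cap, 8 in the stage 18 border and in the fold, and 5 in the plate. Of 6 endoderm symbols, 5 or 6 lay below background in every group. Medians of the 11 arrays lay between 4.94 and 5.04, and arrays of one group correlated at 0.983 to 0.993. In such bulk samples fewer cells of a type and less RNA per cell cannot be told apart.

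Chromatin regulators decide which stretches of DNA can be read. Writers such as the methyltransferases place marks on histones or on DNA, erasers such as demethylases and deacetylases remove them, readers such as chromobox and bromodomain proteins bind them, and remodellers use ATP to move or evict nucleosomes. In the neural crest field chd7, a remodeller whose human gene is mutated in CHARGE syndrome, is the best known of them, since crest-derived structures are malformed in that condition.

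Most members lay above background. Of 47, 42 had a group mean above the background level of 3.72 in all 5 groups. Background is the 95th percentile of the array's 17 tag controls. Some of the 42 lay close to it, such as cbx2.L with group means of 3.79 to 4.01 and hdac10.L with 3.75 to 4.15. The DNA helicase gene smarcal1.L, setd4.L and kmt5b.L were above background in some groups only. The class IIa deacetylase gene hdac9.S and the histone H3 demethylase gene kdm6a.S were above it in none. A moderated F-test over the 5 groups called 32 of 47 members, 68.1%, against 58.9% of all probe sets, 64.5% of the brightest probe sets per symbol and 74% of those above background in all groups. That share lies near the background, so the members as a whole differed between the tissues about as often as other genes.

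**Figure D1:**
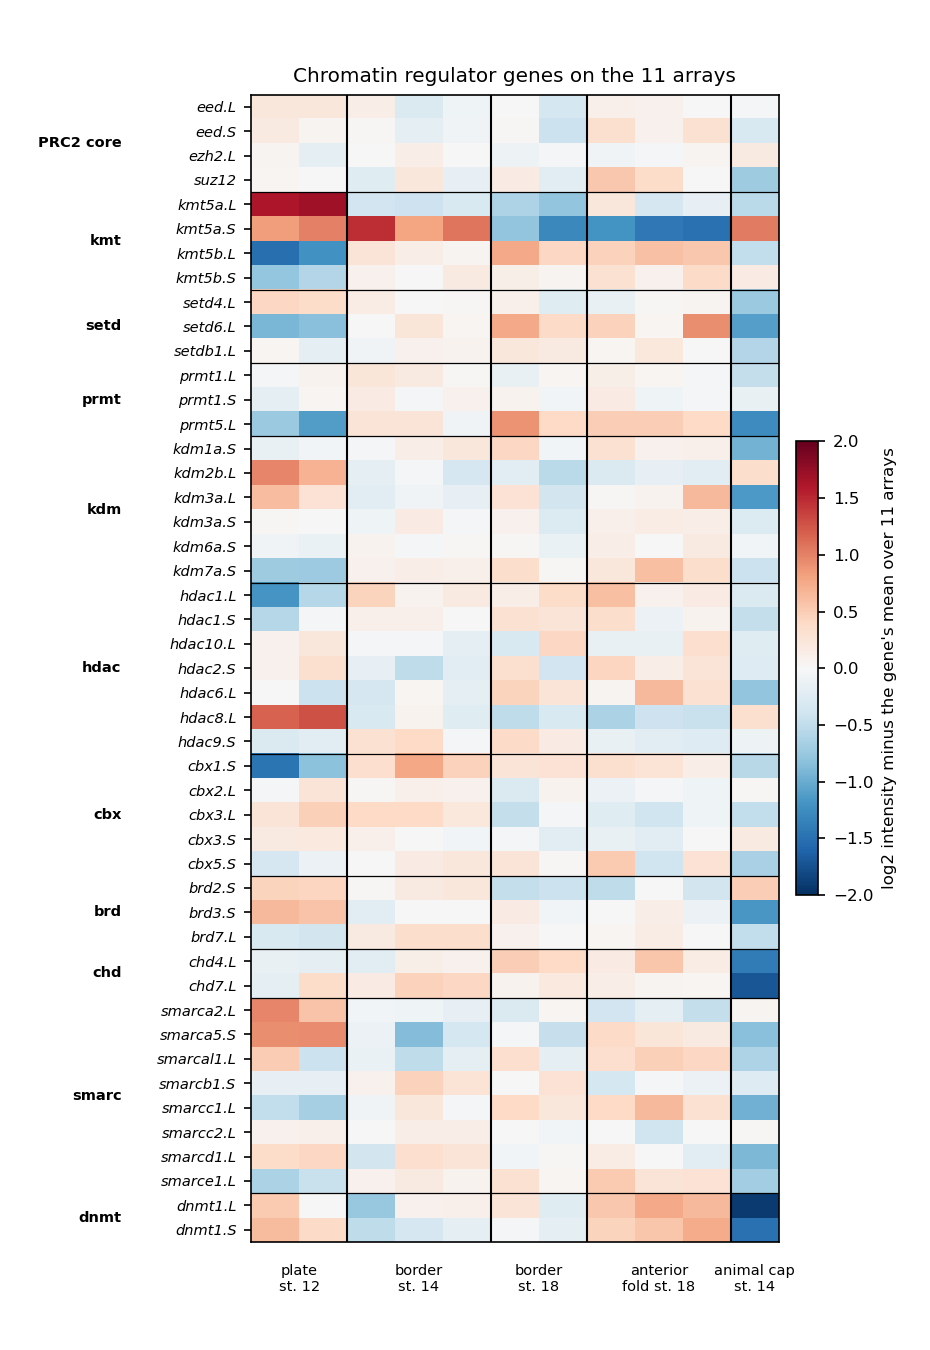
Log2 intensity of the 47 chromatin regulator members on each of the 11 arrays, shown as the difference from the member's own mean over all arrays and ordered by family. The single animal cap array stands out with values below the other arrays for chd7.L, chd4.L and both dnmt1 copies, and kmt5a.L is high on the 2 stage 12 plate arrays.

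Genes for the writers of histone H4 lysine 20 methylation were among the members that moved most. The kmt5a enzyme places the single methyl group at that lysine and is controlled through the cell cycle, and kmt5b adds further methyl groups to it. The copies of kmt5a moved in different comparisons. Plate and stage 14 border differ in both tissue and stage, and this design cannot tell those apart. The long copy, kmt5a.L, read 6.93 and 7.01 on the stage 12 plate arrays, 4.94, 4.91 and 5.01 on the stage 14 border arrays and 4.71 and 4.53 on the stage 18 border arrays. Both plate arrays lay above every other array, and the stage 18 border arrays below every other array. The short copy, kmt5a.S, read 7.57 and 7.75 at stage 12, 8.21, 7.53 and 7.80 at stage 14 and 5.94 and 5.45 at stage 18, and 5.54, 5.30 and 5.25 in the stage 18 anterior fold. Its plate and stage 14 border arrays overlapped, and it was high in the cap at 7.78 and low in both stage 18 tissues. kmt5a.L fell 4.06-fold in the stage 14 border relative to the plate (-2.02 in log2 units with an SE of 0.16, adjusted p = 8.73e-06), while kmt5a.S had a log2 fold change of 0.19 that did not pass. kmt5a.S fell 4.45-fold in the stage 18 border relative to the stage 14 border (-2.15 in log2 units with an SE of 0.21, adjusted p = 0.0014), where kmt5a.L had a log2 fold change of -0.34 that did not pass.

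The unequal change was tested directly on the difference between the long and short copies in each array, over 1017 such gene pairs. For kmt5a the long-minus-short difference was lower in the stage 14 border than in the plate by a log2 value of -2.21 (SE 0.21, adjusted p = 1.76e-05) and higher in the stage 18 border than in the stage 14 border by 1.81 (SE 0.21, adjusted p = 0.000946). Within the stage 18 tissues the difference was lower in the border than in the fold by -0.95 (SE 0.21, adjusted p = 0.021). The fold call was lost in 5 of 14 alternatives, among them without either border array and without the first or the third fold array (adjusted p 0.00706 to 0.169 over all), while the calls at the 2 earlier steps held in all 14. How far each probe set separates the near-identical copies was not tested.

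**Figure D2:**
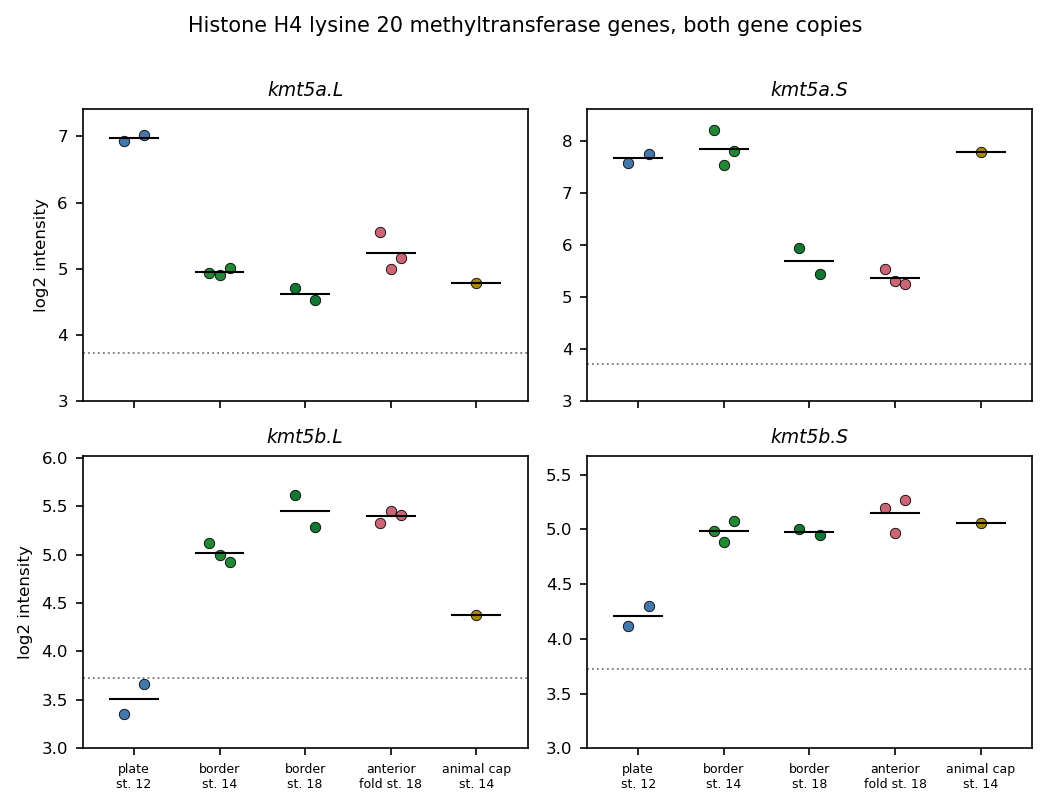
Log2 intensity of the long and short copies of kmt5a and kmt5b in each array by group, with the group means as bars and the background level as a dotted line. The kmt5a.L points lie high at stage 12 only and the kmt5a.S points lie low at stage 18 only, in border and fold alike, while both kmt5b copies lie lowest on the stage 12 plate arrays.

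For kmt5b both copies moved the same way at the start. kmt5b.L read 5.12, 5.00 and 4.92 on the stage 14 border arrays, against 3.36 and 3.66 on the plate arrays. Both plate arrays lay below background and below every other array. It rose at least 2.44-fold against the background level (1.51 in log2 units with an SE of 0.14, adjusted p = 2.45e-05). kmt5b.S read 4.98, 4.89 and 5.07 on the border arrays and 4.12 and 4.30 on the plate arrays, again without overlap. It rose 1.71-fold (0.77 in log2 units with an SE of 0.12, adjusted p = 0.00074). The long copy moved further than the short one, by a log2 difference of 0.73 (SE 0.18, adjusted p = 0.00684). Without the first plate array this difference no longer passed (adjusted p = 0.0571).

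Between the stage 12 plate and the stage 14 border, 12 members were higher and 7 lower in the border, and 28 did not pass. That is 40.4% called, against 41% of all probe sets (19.6% higher and 21.4% lower). Of the brightest probe sets per symbol 46.2% were called, and of those above background in all groups 54.4%, so the members' share lies at or below the background. One of the 12 is hdac9.S, which lay below background in all 5 groups and has no fold (adjusted p = 0.0192). Its call was lost in 4 of 14 alternatives, those without either plate array and without the first or the second border array. The median log2 fold change of the members was 0.05, against 0.01 over all probe sets. Over the same step 11 of 32 cell cycle symbols were higher and 11 lower, and 8 of 8 maternal and early symbols were lower in the border. The cell cycle symbols summed to 12089 to 13634 on the border arrays and 16044 to 16536 on the plate arrays, without overlap. Of 9 mesoderm symbols 0 were higher and 4 lower, with a summed intensity of 79.0 to 80.7 on the border arrays and 161 to 199 on the plate arrays. Neural plate symbols summed to 5543 to 5912 on the border arrays and 10404 to 11307 on the plate arrays, and epidermal symbols to 7788 to 10383 on the border arrays and 3848 to 3861 on the plate arrays. RNA quality was read from the control probe sets as the 3' minus 5' log2 difference, which for beta actin was -2.75, -3.08 and -2.95 on the border arrays and -2.55 and -2.46 on the plate arrays, without overlap. For Gapd it was 2.55, 2.24 and 2.08 on the border arrays and 2.17 and 2.44 on the plate arrays, with overlap. On all arrays the beta actin value was negative and the Gapd value positive, so the sign was not read as quality. The part of these symbol lists and of RNA quality in the members' changes was not tested.

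Of the other writers, prmt5.L and setd6.L were higher in the border. The prmt5.L enzyme makes symmetric dimethylarginine. It read 5.97, 5.96 and 5.65 on border arrays and 4.96 and 4.59 on plate arrays, and rose 2.12-fold (1.08 in log2 units with an SE of 0.18, adjusted p = 0.000811). No plate array reached a border array. The protein lysine methyltransferase gene setd6.L read 6.54, 6.79 and 6.59 in the border and 5.62 and 5.71 in the plate and rose 1.96-fold, at an adjusted p of 0.00623, or 0.0502 without the first plate array. prmt1, the main enzyme of asymmetric arginine methylation, was bright in every group in both copies, between 12.14 and 12.86 on all arrays, and neither copy passed in the border over the plate. A second, dimmer prmt1.L probe set was higher in the border by a log2 value of 1.02 and was called, so the probe sets of that gene disagreed. A dimmer probe set of setdb1.L had a log2 fold change of -0.45 and was called (limma, adjusted p = 0.0128), while its brightest did not pass. Of 10 members with several probe sets, 7 had the same call on all of them here, and 0 had opposed calls.

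The Polycomb writer itself did not pass in any of the 4 comparisons. Polycomb repressive complex 2 holds the methyltransferase ezh2 and the core partners eed and suz12. ezh2.L lay between 9.52 and 9.89 on all 11 arrays. Its log2 fold change in the stage 14 border over the plate had a 95% interval of -0.14 to 0.36, and in the stage 18 border over the stage 14 border of -0.36 to 0.14. Both intervals lie well inside a 2-fold change, although they do not show that the levels are equal. eed.L had a log2 fold change of -0.31 in the border over the plate, eed.S -0.20 and suz12 -0.07, and none of these passed (limma, adjusted p from 0.123 to 0.84). Of these 4 probe sets, 0 had an unadjusted p under 0.05 in that comparison, against 3603 higher and 3799 lower of all 15491.

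Among erasers, the demethylases and deacetylases moved in both directions. kdm2b.L, a demethylase that binds unmethylated CpG islands, read 8.0, 8.15 and 7.85 on the border arrays and 9.16 and 8.87 on the plate arrays. Both plate arrays stood above all others. It fell 2.03-fold in the border (-1.02 in log2 units with an SE of 0.14, adjusted p = 0.000305). kdm7a.S, a demethylase of repressive histone H3 marks, read 4.83, 4.88 and 4.86 in the border and 4.04 and 4.02 in the plate and rose 1.77-fold at an adjusted p of 0.000958. hdac8.L, a class I deacetylase, read 6.02, 6.39 and 6.08 on the border arrays and 7.49 and 7.60 on the plate arrays. It fell 2.61-fold (-1.38 in log2 units with an SE of 0.14, adjusted p = 4.12e-05), with no overlap. hdac1.L, the catalytic subunit of several corepressor complexes, went the other way, with 7.55, 7.18 and 7.30 in the border and 5.94 and 6.54 in the plate. It rose 2.15-fold (1.10 in log2 units with an SE of 0.21, adjusted p = 0.00212), whereas hdac1.S had a log2 fold change of 0.36 that did not pass. The difference between the 2 copies' changes was 0.74 (SE 0.16, adjusted p = 0.00435).

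By measured log2 fold change in the border over the plate the readers held the largest rise, although the rise of kmt5b.L is known only as a lower bound. The gene for heterochromatin protein 1 beta, cbx1.S, read 8.37, 8.81 and 8.49 on the border arrays, against 6.59 and 7.23 on the plate arrays. Every border array lay above both plate arrays. It rose 3.14-fold (1.65 in log2 units with an SE of 0.19, adjusted p = 8.93e-05). cbx3.L and cbx3.S, copies of the gamma form of heterochromatin protein 1, had log2 fold changes of -0.04 and -0.17, and neither passed. Of the bromodomain genes, brd7.L, a subunit of a SWI/SNF remodeller, read 9.35, 9.52 and 9.52 in the border and 8.86 and 8.79 in the plate and rose 1.55-fold at an adjusted p of 0.000839. brd3.S, which binds acetylated histones, read 7.73, 7.96 and 7.96 in the border and 8.60 and 8.52 in the plate and fell 1.60-fold at an adjusted p of 0.00177.

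Among the 10 members named chd or smarc, smarca5.S and smarca2.L were lower in the border, and smarce1.L, smarcc1.L and smarcb1.S higher. smarcd1.L had a log2 fold change of -0.32 on its brightest probe set that did not pass. Its dimmer probe set had -0.52 and was called lower (limma, adjusted p = 0.0336). smarca5.S, the ATPase of ISWI complexes, read 7.58, 6.82 and 7.34 on the border arrays and 8.63 and 8.65 on the plate arrays. It fell 2.62-fold (-1.39 in log2 units with an SE of 0.21, adjusted p = 0.000461), with every border array below both plate arrays. smarca2.L, one of the SWI/SNF ATPases, read 5.16, 5.12 and 5.05 in the border and 6.19 and 5.77 in the plate and fell 1.83-fold at an adjusted p of 0.00132. The SWI/SNF subunits smarce1.L and smarcc1.L rose 1.58-fold and 1.55-fold, at adjusted p of 0.00251 and 0.00531. The smarcb1.S rise of 1.36-fold (adjusted p = 0.0396) was lost in 6 of 15 alternatives: with quantile normalisation (adjusted p = 0.203), without either plate array, without the second or the third border array and without the third fold array. chd7.L, at 10.20, 10.50 and 10.45 in the border and 9.84 and 10.41 in the plate, overlapped between the tissues and did not pass. Of the maintenance DNA methyltransferase dnmt1, the short copy read 6.59, 6.77 and 6.92 in the border and 7.74 and 7.48 in the plate. It fell 1.80-fold (-0.85 in log2 units with an SE of 0.14, adjusted p = 0.000955). dnmt1.L had a log2 fold change of -0.46 that did not pass, and the difference between the copies' changes did not pass either.

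**Figure D3:**
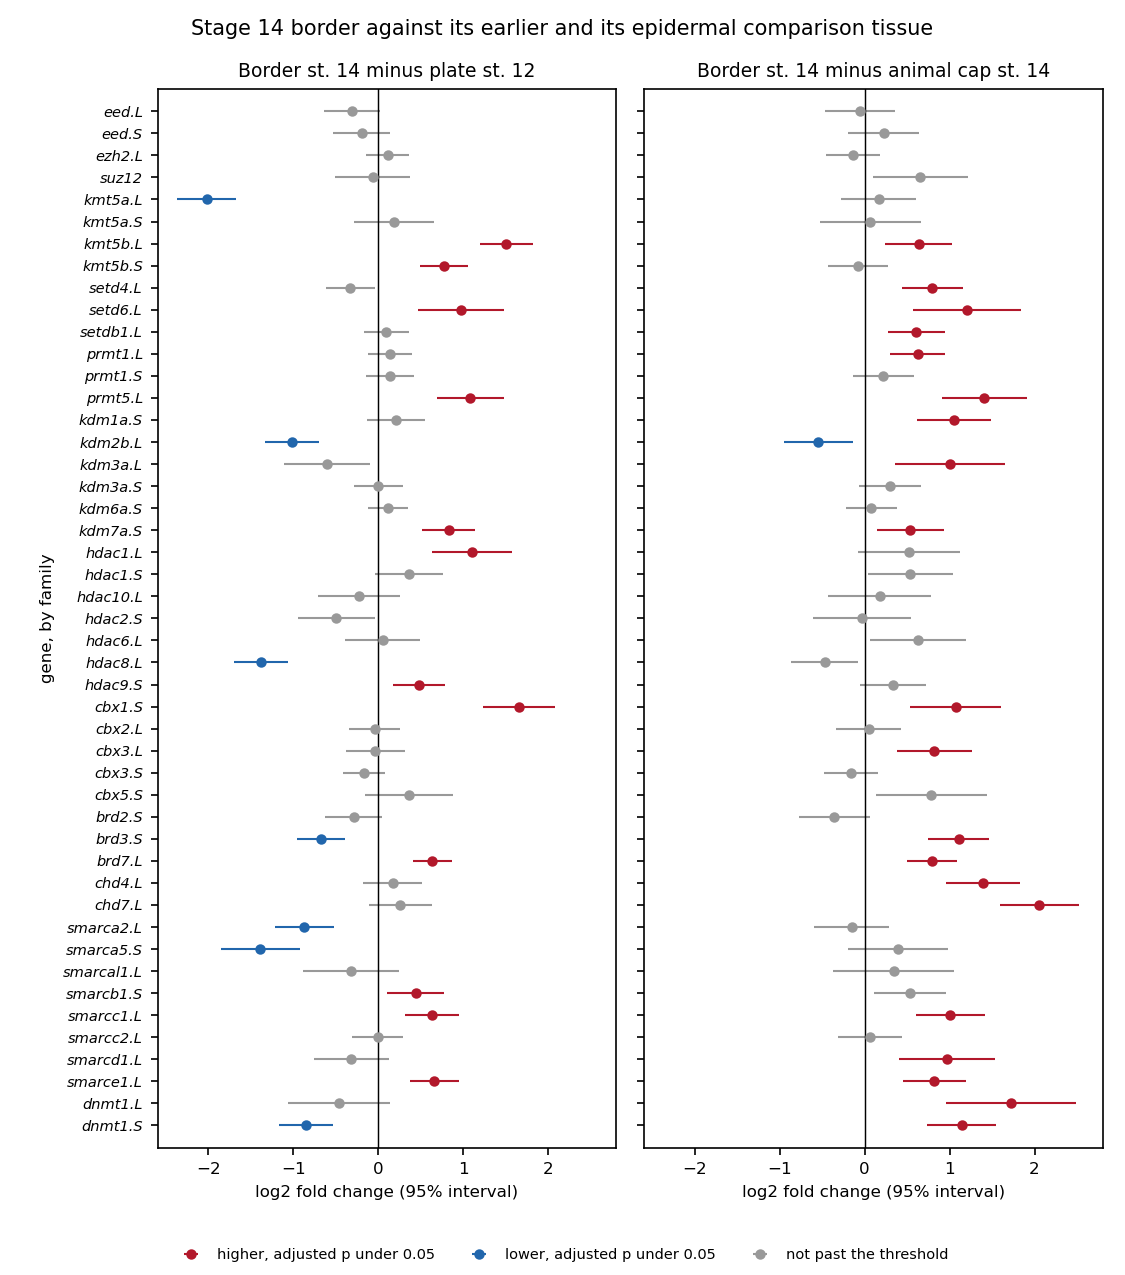
Log2 fold change of each of the 47 members, with its unadjusted 95% interval from limma. The stage 14 border is set over the stage 12 plate (left) and over the cap (right). Red points (higher) and blue points (lower) passed an adjusted p of 0.05, grey points did not: 12 are red and 7 blue on the left, 20 red and 1 blue on the right.

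Between stages 14 and 18 few of these genes passed the test in the border, and few of all probe sets did. In the stage 18 border relative to the stage 14 border 0 of 47 members were higher and 2 lower (limma). That is 4.26% called, against 6.56% of all probe sets (3.78% higher and 2.78% lower) and 7.3% of the brightest per symbol. The members' share lies near the background. At an unadjusted p under 0.05, 4 members were higher and 4 lower, against 1652 higher and 1542 lower of all 15491 probe sets. One of the 2 is kmt5a.S, described above. The other, the acetyl-histone reader brd2.S, read 9.70 and 9.74 in the stage 18 border and 10.20, 10.35 and 10.41 in the stage 14 border and fell 1.52-fold (adjusted p = 0.0436). That call was lost in 10 of the 15 alternatives (adjusted p 0.0222 to 0.157). The other families' largest changes did not pass: cbx3.L had a log2 fold change of -0.59 (adjusted p = 0.0537), hdac6.L, a deacetylase of the cytoplasm, 0.51, prmt5.L 0.50, setd6.L 0.47, chd4.L 0.45, smarcal1.L 0.35 and kdm2b.L -0.20. dnmt1.L had 0.20 and dnmt1.S 0.23, and the Polycomb core lay between -0.12 (eed.S) and 0.03 (suz12). Of 11 epidermal symbols 5 were higher and 0 lower in the stage 18 border. They summed to 16633 to 21169 there and 7788 to 10383 at stage 14. Maternal and early symbols had 0 of 8 higher and 4 lower, and summed to 464 to 649 against 1012 to 1242. Cell cycle symbols had 0 of 32 higher and 3 lower, and summed to 10825 to 11391 against 12089 to 13634. The part of these in the members' changes was not tested.

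Within stage 18, the crest-forming border was set against the anterior fold, which forms none. Again 0 members were higher and 2 lower in the border (limma). That is 4.26% called, near the 5.97% of all probe sets (3.31% higher and 2.67% lower). At an unadjusted p under 0.05, 1 member was higher and 5 lower, against 1447 higher and 1176 lower of all 15491 probe sets. dnmt1.S read 7.07 and 6.92 in the border and 7.55, 7.65 and 7.84 in the fold and fell 1.62-fold (-0.69 in log2 units with an SE of 0.14, adjusted p = 0.019). kmt5a.L read 4.71 and 4.53 in the border and 5.55, 4.99 and 5.16 in the fold and fell 1.53-fold (adjusted p = 0.0488). The dnmt1.S call was lost in 4 of 15 alternatives, among them without the second border array, without the second fold array and without the third, and the kmt5a.L call was lost in 11 of 15 alternatives: dnmt1.S had an adjusted p of 0.0121 to 0.137 and kmt5a.L of 0.0298 to 0.263. dnmt1.L, whose 3 fold arrays at 7.46, 7.69 and 7.57 lay above every other array, had a log2 fold change of -0.64 in the border over the fold that did not pass. Other families' largest changes, none of which passed, were -0.52 for smarca5.S, 0.48 for hdac9.S (below background in both), -0.44 for eed.S, -0.29 for kdm3a.L and 0.19 for prmt5.L. For ezh2.L the 95% interval of the log2 fold change was -0.30 to 0.20. Of 32 cell cycle symbols 0 were higher and 4 lower in the border than in the fold, with 0 higher and 14 lower at an unadjusted p under 0.05. Their summed intensity was 10825 to 11391 on the border arrays and 15072 to 15861 on the fold arrays. Epidermal symbols (3 of 11 higher, 0 lower) summed to 16633 to 21169 on the border arrays and 11088 to 11915 on the fold arrays. Neural plate symbols (1 of 11 higher, 3 lower) summed to 4765 to 5141 and 5855 to 7135. Cement and hatching gland symbols (0 of 5 higher, 3 lower) summed to 3213 to 3487 and 7534 to 9303. The part of the cell cycle and of these tissues in the dnmt1.S and kmt5a.L differences was not tested.

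The comparison with the animal cap had the most members called. In the stage 14 border 20 members were higher than in the cap and 1 was lower, and 26 did not pass. Among all probe sets 30.9% were called, 15.1% higher and 15.8% lower. The members' share higher, 42.6%, is well above that, and their share lower, 2.13%, is below it. With the background restricted to the brightest probe set of each symbol that lay above background in all groups, 21.2% were higher and 18.8% lower. The median log2 fold change of the members was 0.54, against -0.04 over all probe sets. The cap is 1 array and was assumed to vary like the other groups. It was also explanted and cultured, whereas the border was microdissected from embryos. This comparison cannot tell tissue from culture. Of 32 cell cycle symbols, 16 were higher and 5 lower in the border than in the cap. Their summed intensity was 12089 to 13634 on the border arrays and 8160 on the cap array. Neural plate symbols summed to 5543 to 5912 on the border arrays and 493 on the cap array. Epidermal symbols summed to 7788 to 10383 on the border arrays and 23844 on the cap array. Maternal and early symbols summed to 1012 to 1242 on the border arrays and 2353 on the cap array. The 3' minus 5' difference was -2.75, -3.08 and -2.95 on the border arrays and -3.14 on the cap array for beta actin, and for Gapd 2.55, 2.24 and 2.08 on the border arrays and 1.85 on the cap array. On both controls the cap array had the lowest value of all arrays. The part of cycling cells, of these tissues, of early transcripts or of RNA quality in the members' difference was not tested.

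The genes that were higher include both remodellers of the chd family, both dnmt1 copies and all 3 setd members. For setd4.L, which lay below background in the cap, the rise was at least 1.11-fold (adjusted p = 0.00442). chd7.L read 10.20, 10.50 and 10.45 on the stage 14 border arrays, against 8.33 on the cap array. The cap lay below all 10 other arrays. chd7.L rose 4.17-fold in the border (2.06 in log2 units with an SE of 0.21, adjusted p = 8.32e-05), and its 3 probe sets were all higher, by log2 values of 2.06, 2.1 and 2.18. chd4.L, the ATPase of the NuRD corepressor complex, read 8.57, 8.92 and 8.89 in the border and 7.40 in the cap, and rose 2.63-fold (1.40 in log2 units with an SE of 0.20, adjusted p = 0.000547). dnmt1.L read 6.17, 7.01 and 7.02 in the border and 5.01 in the cap and rose 3.29-fold (adjusted p = 0.00401), and dnmt1.S read 6.59, 6.77 and 6.92 in the border and 5.62 in the cap and rose 2.21-fold (adjusted p = 0.00111). The cap array was below every other array for both copies.

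**Figure D4:**
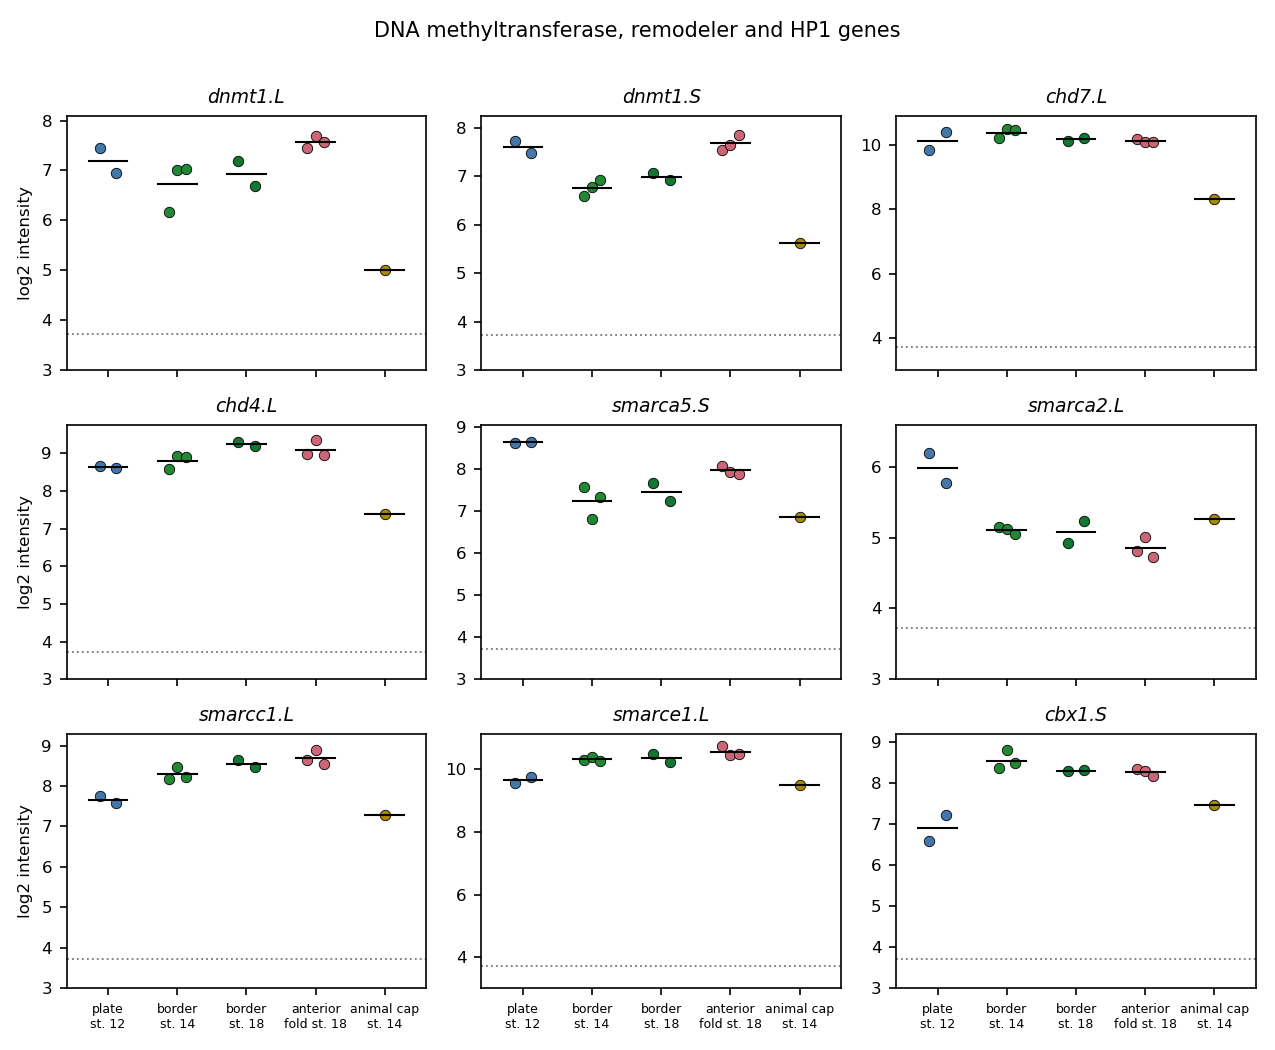
Log2 intensity of 9 members (both dnmt1 copies, 6 remodeller genes and cbx1.S) on each array by group, with group means as bars and the background level as a dotted line. The cap array lies below the border, plate and fold arrays for chd7.L, chd4.L, dnmt1.L and dnmt1.S.

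prmt5.L read 5.97, 5.96 and 5.65 in the border and 4.45 in the cap and rose 2.66-fold (1.41 in log2 units with an SE of 0.22, adjusted p = 0.00117). cbx1.S, at 7.49 in the cap, rose 2.1-fold in the border (adjusted p = 0.00729), and its dimmer probe set also rose. brd3.S read 7.73, 7.96 and 7.96 in the border and 6.78 in the cap and rose 2.15-fold (adjusted p = 0.000661). kdm1a.S, the histone H3 lysine 4 demethylase that works in corepressor complexes, read 8.52, 8.70 and 8.79 in the border and 7.61 in the cap, and rose 2.08-fold (adjusted p = 0.00264); its second probe set had a log2 fold change of 0.70 that did not pass. Of the SWI/SNF subunits, smarcc1.L rose 2.01-fold (adjusted p = 0.00221) and smarce1.L 1.77-fold (adjusted p = 0.00413). setd6.L read 6.54, 6.79 and 6.59 in the border and 5.43 in the cap and rose 2.30-fold (adjusted p = 0.00985). prmt1.L rose 1.54-fold (adjusted p = 0.00859), although its second probe set did not pass. setdb1.L, a histone H3 lysine 9 methyltransferase, rose 1.52-fold on its brightest probe set and was called on 3 of its 4. kmt5b.L rose 1.55-fold (adjusted p = 0.0211), whereas kmt5b.S had a log2 fold change of -0.08 that did not pass. The difference between these copies' changes was 0.71 (SE 0.22, adjusted p = 0.0413), and it was lost in 7 of 14 alternatives, among them without either plate array, without the first or the second border array and without the first or the third fold array (adjusted p 0.0211 to 0.0785 over all).

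The 7 deacetylases had none called in this comparison (limma), against 30.9% of all probe sets. At an unadjusted p under 0.05, 2 were higher and 1 lower, against 3000 higher and 3320 lower of all 15491. With 7 deacetylases and 4 Polycomb core probe sets, 0 called is not read as a trait of either family. Of the Polycomb core none was called. The largest difference was that of suz12, a log2 value of 0.66 with an unadjusted 95% interval of 0.10 to 1.21 (limma, adjusted p = 0.0725). The 1 member lower in the border, kdm2b.L, read 8.0, 8.15 and 7.85 there and 8.54 in the cap, and fell 1.46-fold (adjusted p = 0.0445). Its call was lost under 7 alternatives, among them without the first or the third border array and without any one of the fold arrays.

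**Figure D5:**
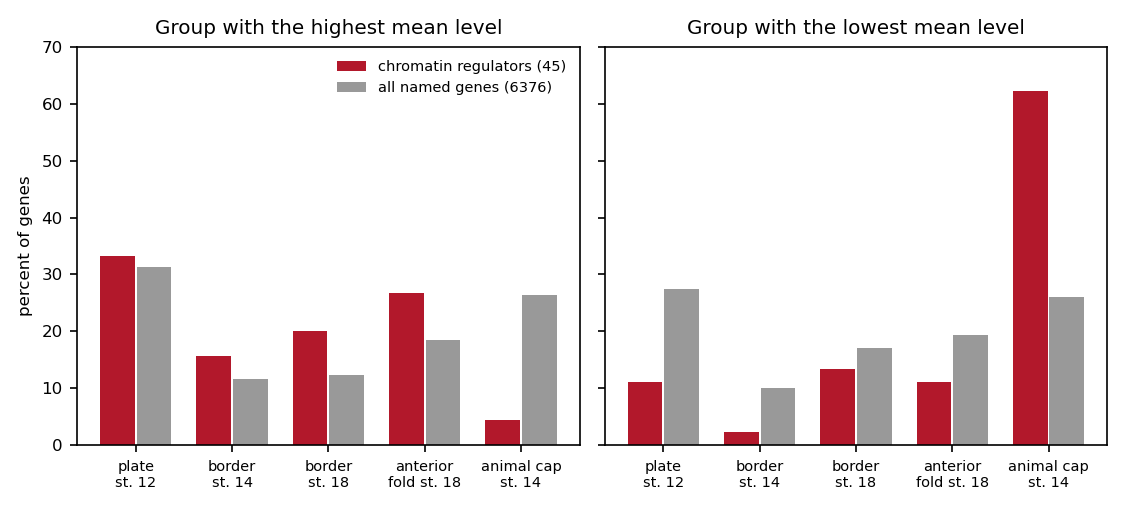
Share of detected members, and of all symbols above background in at least 1 group, whose highest or lowest group mean falls in each of the 5 groups. Of 45 members the cap held the lowest mean for 62.2%, against 26.1% of all symbols, and the highest for 4.44%, against 26.3%.

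By level, the cap was the low tissue for these genes. Among the 45 members above background in at least 1 group, 28 had their lowest group mean in the cap, which is 62.2% against 26.1% of 6376 such symbols, and 2 had their highest mean there. On single arrays, the cap array lay below all 10 other arrays for 22 of 47 members, 46.8%, against 16.4% of all probe sets, and above all of them for 2, ezh2.L and brd2.S, against 21.4%. The stage 12 plate arrays stood above all others for 10 members (21.3%, against 17.9% of all probe sets) and below all others for 5 (10.6%, against 15.4%). The stage 14 border arrays stood above all others for brd7.L and cbx1.S (4.26%, against 1.92%) and below all others for none (against 1.6%). The stage 18 border arrays stood below all others for kmt5a.L (2.13%, against 2.85%) and above for none (against 3.34%), and the fold arrays above all others for dnmt1.L (2.13%, against 4.34%) and below for none (against 3.57%).

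The border comparisons share the stage 14 border arrays, so their calls are given side by side. No share over all probe sets stands beside these joint counts, so they cannot be read as a trait of the members. Higher than both plate and cap were brd7.L, cbx1.S, kdm7a.S, kmt5b.L, prmt5.L, setd6.L, smarcc1.L and smarce1.L, 8 members. Of these, kdm7a.S lost its call over the cap in 9 of 15 alternatives and kmt5b.L in 1 (adjusted p up to 0.0559), and setd6.L lost its call over the plate in 1 (0.0502). Lower than the plate but higher than the cap were brd3.S and dnmt1.S. 18 members passed in neither comparison.

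Of the 8 genes with both copies among the members, the copies changed unequally in 4 pairs in the border over the plate, against 36.5% of 1017 pairs, in 1 pair each in the stage 18 border over the stage 14 border (6%) and over the fold (5.51%), and in 2 pairs in the border over the cap, against 22.3%. Over the 5 groups 5 of the 8 differed, against 54.1%. The pairs not yet described are kdm3a, an H3 lysine 9 demethylase, and cbx3. For kdm3a the long-minus-short difference was lower in the border than in the plate by -0.60 (SE 0.21, adjusted p = 0.04), a call lost in 6 of 14 alternatives, including without any one of the plate or border arrays (adjusted p 0.018 to 0.248 over all). For cbx3 it was higher in the border than in the cap by 0.98 (SE 0.24, adjusted p = 0.0137).

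A further 91 symbols from 73 genes outside the rule, partners and other enzymes of the same kinds of complexes, were counted for comparison. In the stage 14 border over the plate 20 were higher (22%, against 19.6% of all probe sets) and 17 lower (18.7%, against 21.4%). In the border over the cap 27 were higher (29.7%, against 15.1%) and 4 lower (4.4%, against 15.8%), with a median log2 fold change of 0.24. Among them zbtb33.S, a methyl-CpG reader, read 10.49, 9.29 and 8.26 on the border arrays and 5.39 on the cap array, and rose 15.5-fold (adjusted p = 0.000896). kat7.L, a histone acetyltransferase, rose 4.69-fold in the border over the plate (adjusted p = 8.56e-06), with 8.42, 8.21 and 8.39 on border arrays and 5.78 and 6.44 on plate arrays. rcor2.L, a CoREST corepressor gene, rose 6.77-fold in the border over the cap (adjusted p = 4.51e-06), and tdg.S, a DNA glycosylase gene, 3.79-fold in the border over the plate (adjusted p = 0.00479). In the stage 18 border over the stage 14 border 3 of the 91 were higher (3.3%, against 3.78% of all probe sets) and 6 lower (6.59%, against 2.78%). There uhrf1.S, a partner of dnmt1, rose 1.92-fold (adjusted p = 0.017) and the histone chaperone gene npm2.S fell 1.91-fold (adjusted p = 0.0466). Over the fold 1 was higher and 1 lower (1.1% each, against 3.31% and 2.67% of all probe sets). The arginine methyltransferase gene carm1.S rose 1.71-fold (adjusted p = 0.0463) and the histone chaperone gene asf1b.L fell 1.58-fold (adjusted p = 0.0145).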

How the data were processed

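Affymetrix Xenopus laevis arrays from 11 samples were used. The deposited table holds the authors' log2 intensities, taken as already normalised because the arrays' medians lie close together; their method is, in the sources used here, not given. R 2.14.2 is the one tool named, per the submitters' processing notes. Values ran from 2.13 to 13.56 with no missing entry, and no depth can be given for arrays: their number limits the precision.

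Of 15611 probe sets, 120 controls were left out. Gene symbols came from the platform annotation: 9304 probe sets had 1 symbol, 195 had several and 5992 had none, and 46 of 47 members were matched to RefSeq by gene ID. limma 3.58.1 in R 4.3.3 fitted a mean per group with all arrays in 1 fit (6 residual degrees of freedom, prior SD 0.16), two-sided, with Benjamini-Hochberg adjustment over 15491 probe sets. Copy differences were fitted the same way over 1017 pairs. The fit was tested on simulated data.

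Members, lists and named genes were chosen with earlier results of these data known. Named are the 8 largest called changes per direction without overlap, the largest of each family, every dnmt and Polycomb core member, called copy pairs, and 2 outside genes per comparison. Replicate numbers were not used as pairs in the main fit: of 13 same-numbered pairs, 2 correlated above 0.1. In groups of 2 arrays the deviations from the group mean mirror each other, so this check cannot exclude a pairing. Alternatives were quantile normalisation, centring, no dim probe sets, a trended robust fit, the arrays compared alone, the mean of probe sets, a 1.5-fold minimum, copies joined, the replicate block and each replicate left out. No sequence or coordinate was used here.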

Additional observations from a re-analysis of the deposited data

How the results depend on the processing

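No called value of a named member changed direction under the alternatives run: of 1213 values of named members, 1148 stayed on their side of the threshold, 56 lost the call and 9 gained it. In the stage 14 border over the cap, the 1 member lower became 2 with quantile normalisation and 0 with only the arrays compared, with a trended robust fit or with a 1.5-fold minimum. In the stage 18 border over the stage 14 border, the 2 members lower became 1 with only the arrays compared and 1 with the replicate block. In the stage 18 border over the fold, the 2 lower became 1 with only the arrays compared, with the trended robust fit or with copies joined and 0 with the replicate block, and 1 was higher with the trended robust fit. With the replicate block the copy pairs called were 0 in the stage 18 border over the fold and 1 in the stage 14 border over the cap. The block also ended the calls of dnmt1.S in the stage 18 border over the fold (adjusted p = 0.054) and of kmt5b.L over the cap (adjusted p = 0.0559). With it brd2.S lost its call in the stage 18 border over the stage 14 border, and kmt5a.L over the fold. Over the cap kdm2b.L, kdm7a.S and smarcd1.L lost theirs. The cause was not tested. Leaving out each replicate in turn gave 9 to 12 higher and 7 to 10 lower in the stage 14 border over the plate, 18 to 21 higher and 0 to 2 lower over the cap, 0 higher and 1 to 2 lower in the stage 18 border over the stage 14 border, 0 to 1 higher and 0 to 2 lower over the fold, and 30 to 35 in the F-test. Copy pairs ranged over 2 to 4, 1 to 2, 1 to 2 and 0 to 1 in the same order of comparisons, and 3 to 5 in the F-test. The cap has 1 array and could not be left out. Of the called members, 16 of 19 over the plate and 16 of 21 over the cap held under all 15 alternatives run gene by gene.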
